A study of Arabidopsis thaliana with 9 samples.

Results

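The 10 genes described here encode helix-loop-helix (HLH) and basic HLH (bHLH) proteins that promote or restrain cell elongation in Arabidopsis thaliana: PRE1, PRE5, PRE6, BEE1, BEE2, BEE3, HBI1, IBH1, PAR1 and HFR1. They were taken by locus identifier (AT5G39860, AT3G28857, AT1G26945, AT1G18400, AT4G36540, AT1G73830, AT2G18300, AT2G43060, AT2G42870 and AT1G02340, in that order) from the deposited expression table, where all 10 had values among 24331 loci with values, and all 10 passed the filter on low values (at least 1 FPKM in at least 3 libraries) that left 17662 genes for testing. Whole seedlings aged 5 days were sequenced in 9 libraries, 3 for each of 3 groups. The groups were untreated Col-0, the wild-type strain; MIR394A OE, a line that overexpresses the microRNA gene MIR394A; and Col-0 grown on half-strength MS medium with 2 µM Brz. All seeds were chilled for 4 days at 4 °C and then grown at 22 °C under a light period of 16 h and a dark period of 8 h. The labels do not spell out Brz, which in this field commonly stands for brassinazole, an inhibitor of brassinosteroid synthesis. They also do not name the promoter of the MIR394A transgene, the number of lines, or whether replicates came from separate growths, so the p-values rest on library-to-library spread, part of which may be technical.

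As background, brassinosteroids and light act on hypocotyl growth in part through a chain of HLH proteins that bind each other. HBI1 is a DNA-binding bHLH activator of cell wall and growth genes, and BEE1, BEE2 and BEE3 are related bHLH factors first described as early brassinosteroid-response genes. IBH1 is an HLH protein that binds HBI1 and keeps it from DNA. The PRE proteins are small HLH proteins that cannot bind DNA themselves and that promote growth by binding inhibitors such as IBH1 and PAR1. PAR1 and HFR1 are light-linked inhibitors, and HFR1 binds the PIF factors, which are bHLH activators of growth in shade and darkness.

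The sequences just upstream of the annotated gene starts are shown for 5 of the genes: PRE6 and IBH1, whose levels moved in opposite directions in Brz-treated seedlings, HBI1 and BEE2, whose levels followed each other between libraries, and BEE1, the single member with a G-box in this window. They were read from RefSeq's TAIR10.1 assembly as the 250 bases before the start, 5′ to 3′ on the gene's strand. Capitals mark the 6-base E-box CANNTG, of which the G-box CACGTG is one form, and the brassinosteroid response motifs CGTGCG and CGTGTG, searched on both strands.
PRE6, chr1:9350910-9351159, + strand: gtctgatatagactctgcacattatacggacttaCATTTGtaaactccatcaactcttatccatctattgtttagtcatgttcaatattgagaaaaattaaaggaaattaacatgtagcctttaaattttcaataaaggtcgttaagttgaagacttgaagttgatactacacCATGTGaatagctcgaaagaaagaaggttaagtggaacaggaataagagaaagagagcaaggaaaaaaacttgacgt
IBH1, chr2:17908757-17909006, + strand: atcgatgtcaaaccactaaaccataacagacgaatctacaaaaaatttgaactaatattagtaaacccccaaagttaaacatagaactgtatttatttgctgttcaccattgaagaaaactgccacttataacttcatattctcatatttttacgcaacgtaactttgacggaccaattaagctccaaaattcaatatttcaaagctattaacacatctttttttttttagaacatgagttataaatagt
HBI1, chr2:7954786-7955035, - strand: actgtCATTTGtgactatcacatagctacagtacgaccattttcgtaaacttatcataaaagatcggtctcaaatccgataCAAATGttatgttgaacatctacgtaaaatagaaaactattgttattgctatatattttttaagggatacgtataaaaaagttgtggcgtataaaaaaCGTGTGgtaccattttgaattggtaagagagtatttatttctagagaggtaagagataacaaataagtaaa
BEE2, chr4:17243333-17243582, + strand: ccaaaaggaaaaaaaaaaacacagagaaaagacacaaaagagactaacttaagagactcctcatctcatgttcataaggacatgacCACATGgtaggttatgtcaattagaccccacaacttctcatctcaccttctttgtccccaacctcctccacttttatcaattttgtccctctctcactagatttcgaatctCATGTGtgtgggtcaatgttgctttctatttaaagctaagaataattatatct
BEE1, chr1:6331148-6331397, + strand: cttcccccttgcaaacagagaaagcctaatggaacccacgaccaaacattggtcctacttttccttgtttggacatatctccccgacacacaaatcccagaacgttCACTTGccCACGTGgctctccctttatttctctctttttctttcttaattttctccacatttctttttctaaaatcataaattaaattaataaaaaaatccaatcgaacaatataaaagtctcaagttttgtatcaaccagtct

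An E-box was found in 5 of the 10 upstream windows, those of PRE6, BEE1, BEE2, HBI1 and HFR1, against 55.3% of 27443 protein-coding genes. The G-box of BEE1 begins 136 bases before the gene start, and 6.49% of genes hold one in this window. HBI1 holds CGTGTG, beginning 71 bases before the start, and 6.71% of genes hold CGTGCG or CGTGTG. PRE1, PRE5, BEE3, IBH1 and PAR1 hold no match to these letters in the window. Over 1000 bases, 3 of the 10 hold a G-box (BEE1, PAR1 and HFR1, against 14.8% of genes), 1 holds a brassinosteroid response motif (HBI1, against 21.1%), and IBH1 is the single member without an E-box (96.2% of genes have one).

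The 10 genes lie on all 5 chromosomes and overlap no other annotated gene, and no 50-base stretch of their longest transcripts occurs in the transcript of another gene. PRE1, PRE5 and PRE6 have 2 exons each, IBH1 and PAR1 have 1, and the bHLH genes BEE1, BEE2, BEE3, HBI1 and HFR1 have 4 to 6. Their longest transcripts run from 856 bases in PRE1 and 911 in PRE5 over 1055 in PRE6, 1082 in BEE3, 1203 in PAR1, 1204 in IBH1, 1362 in BEE2, 1466 in HFR1 and 1541 in BEE1 to 1755 bases in HBI1.

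Expression is given as FPKM, fragments per kilobase of transcript scaled to library size, as deposited by the authors. The spacing of low values gave fitted depths between 21.65 and 21.9 M reads per library, and read intervals based on them cover counting error only. Groups were compared with limma on log2(FPKM + 1), which understates changes of low genes. Genes were called where the Benjamini-Hochberg adjusted p over 17662 genes was under 0.05. The median log2 fold change over all tested genes was -0.22 in Brz-treated against untreated Col-0 and followed transcript length, from 0.38 in the shortest quintile of genes (65 to 1108 bases) to -0.72 in the longest (2431 to 15700 bases). Values with this length trend removed are therefore given beside many of the Brz results. Brz replicate 1, MIR394A OE replicate 3 and Col-0 replicate 2 stood apart on the second principal component (-29 to -23.6, against 3.6 to 25.6 for the others). That component held 16.7% of the variance, and the first held 61.9%. The Brz group was uneven on the first: replicate 1 lay at 23.8 and replicates 2 and 3 at 64.9 and 64.5. The untreated groups lay at -30.7 to -18.2. The synthesis genes DWF4 (4.46 ± 0.90 to 9.71 ± 3.15 FPKM, SD, n = 3) and CPD (110.5 ± 7.70 to 154.9 ± 14.98 FPKM), known to rise when brassinosteroid is scarce, were called higher in Brz-treated seedlings. LCR, the known miR394 target, was not called in MIR394A OE (24.98 ± 3.61 against 26.6 ± 1.64 FPKM), and MIR394A itself was not analysed here. Summed FPKM of 8 green-shoot markers was 40710 to 48950 in all libraries. In Brz against Col-0, however, CAB3 (0.97), LHCA3 (0.66) and PSBP-1 (0.36) were called higher and RCA (-0.80, log2 fold change) lower. With the length trend removed CAB3 (0.88, limma adjusted p = 0.014) and LHCA3 (0.64, adjusted p = 0.022) were still called. PSBP-1 (0.35, adjusted p = 0.1) and RCA (-0.45, adjusted p = 0.077) were then not called. The sum of 8 root markers was 1651 to 2262 in Col-0, 2083 to 2744 in MIR394A OE and 1570 to 2079 in Brz, of which PYK10 made up 89.3% to 94.6%, and none was called in Brz. That of 4 seed storage and oil body genes was 1.66 to 4.82 in the untreated groups and 6.78 to 14.81 in Brz, with SESA1 at 0 in 4 of the 9 libraries, and CRA1 and OLEO2 were called higher in Brz. The part of these markers in the Brz results was not tested.

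**Figure D1:**
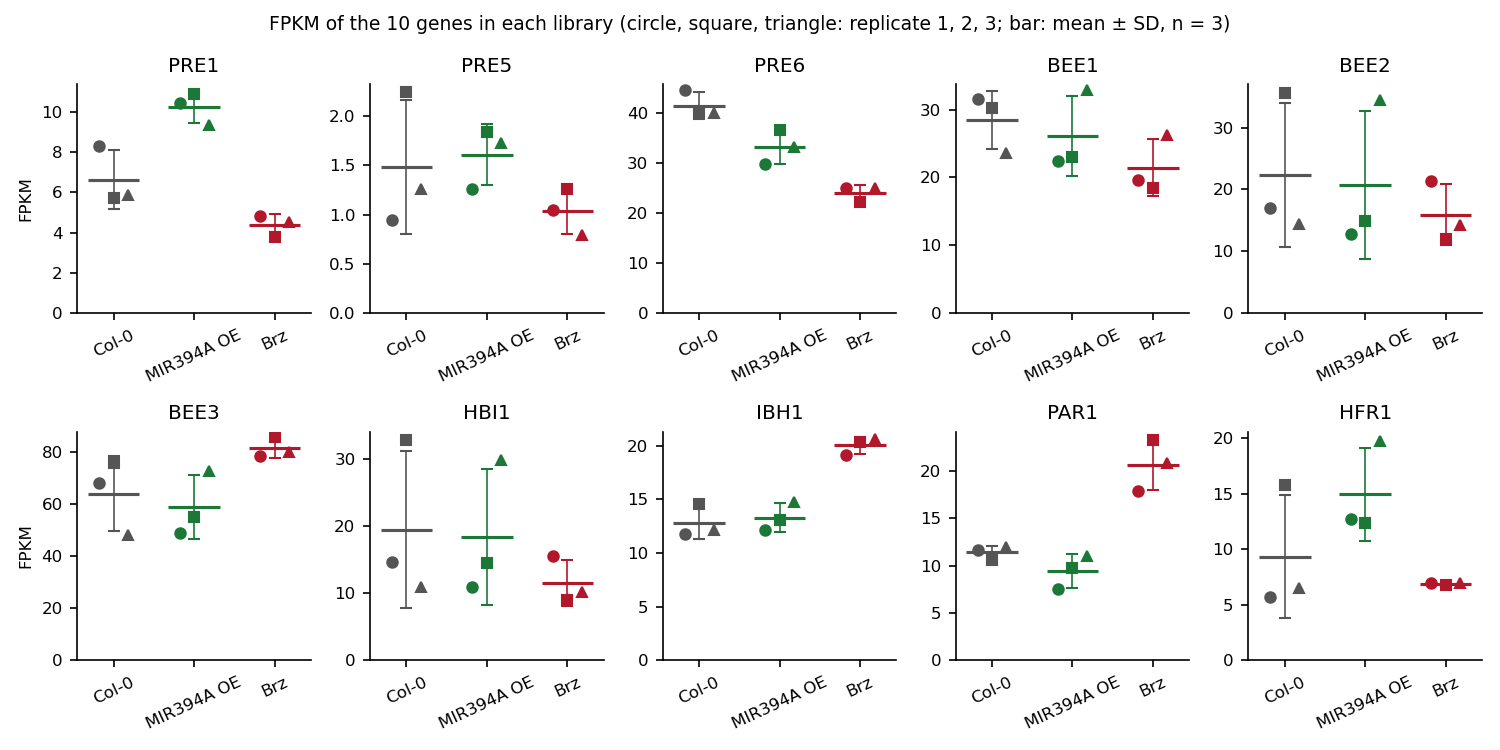
FPKM of each of the 10 genes (y axis, from 0) in the 3 groups, with a point for each library and bars for the mean ± SD (n = 3). The Brz libraries lie below the Col-0 libraries for PRE1 and PRE6 and above them for BEE3, IBH1 and PAR1, while BEE2, HBI1 and HFR1 each have 1 high library in Col-0 and MIR394A OE.

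In untreated Col-0 the most abundant of the 10 was BEE3, at 63.9 ± 14.4 FPKM (SD, n = 3), followed by PRE6 at 41.5 ± 2.69 and BEE1 at 28.5 ± 4.30. BEE3 and PRE6 did not overlap between libraries, at 47.98 to 75.84 and 39.97 to 44.65 FPKM, and BEE1, at 23.58 to 31.61, lay below both. BEE2 (22.3 ± 11.6) and HBI1 (19.5 ± 11.7) overlapped with BEE1 and with IBH1 (12.8 ± 1.54). PAR1 (11.4 ± 0.69) and HFR1 (9.33 ± 5.57) were not distinct from IBH1 beyond their spread. PRE1 measured 6.63 ± 1.47 FPKM, and its libraries overlapped those of HFR1. PRE5 was the lowest at 1.48 ± 0.68, below PRE1 in every library. Of the PRE genes PRE6 was the most abundant in every library.

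In Brz-treated seedlings the growth promoters PRE1 and PRE6 fell and the inhibitors IBH1 and PAR1 rose. Over the 10 genes 2 were higher and 2 lower, that is 4 of 10 called, where 41.9% of all tested genes were called in this comparison (13.2% higher and 28.7% lower), so the share of called genes was close to the background. With the length trend removed 2 were higher and 3 lower, against 13.1% and 10.4% of tested genes, 23.5% in all. With median-ratio scaling, which brings the median of all genes to 0.01, 3 were higher and 1 lower, against 24.6% and 20.4%, 45% in all. The median log2 fold change of the 10 was -0.33, against -0.22 over all tested genes. Groups did not overlap for 5 of the 10 (PRE1, PRE6, BEE3, IBH1 and PAR1), against 50.1% of tested genes, and 4 had an unadjusted p under 0.05, against 51.2%. In bulk seedlings, fewer cells that express a gene and less RNA per cell cannot be told apart.

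PRE6, whose reference symbol is KDR for KIDARI, measured 44.65, 40.00 and 39.97 FPKM in Col-0 replicates 1 to 3 and 25.02, 22.13 and 25.02 in the Brz-treated ones. Each Brz library lay far below the lowest Col-0 library. The log2 fold change was -0.76 ± 0.13 (SE, limma adjusted p = 0.0016). It was -0.99 (adjusted p = 0.0027) with the length trend removed and -0.49 (adjusted p = 0.026) with median-ratio scaling. PRE6 was called lower under all 22 alternatives run (other scalings, filters and pseudocounts, left-out libraries and other designs), at log2 fold changes of -1.07 to -0.49.

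PRE1 measured 8.33, 5.70 and 5.86 FPKM in Col-0 and 4.81, 3.77 and 4.51 in the Brz libraries. The groups did not overlap, though Col-0 replicates 2 and 3 lay close to the highest Brz library. On the log2 scale PRE1 changed by -0.50 ± 0.18 (SE, limma adjusted p = 0.040). The call was less firm than that of PRE6: it was kept in 10 of 22 alternatives and lost, among other settings, with median-ratio scaling (-0.26, adjusted p = 0.22). Leaving out Col-0 replicate 1 gave -0.34 (adjusted p = 0.18), and leaving out Brz replicate 2 gave -0.41 (adjusted p = 0.14). It was also lost when Col-0 replicate 3 (adjusted p = 0.053), Brz replicate 3 (0.086), MIR394A OE replicate 1 (0.061) or MIR394A OE replicate 2 (0.054) was left out. PRE1, the shortest transcript of the 10, with the length trend removed stood at -0.89 (adjusted p = 0.010). About 67 to 86 reads in the Brz libraries and 102 to 149 in the Col-0 libraries lay behind these values, as fitted from the FPKM steps.

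PRE5 was close to the filter limit, at 0.94, 2.25 and 1.26 FPKM in Col-0 and 1.05, 1.26 and 0.79 in Brz. The libraries of both groups overlapped. Col-0 replicate 2, with about 43 reads (95% Poisson interval 31.1 to 57.9), stood above Col-0 replicate 1, with about 18 (10.7 to 28.4). A log2 fold change of -0.26 ± 0.20 was not called (limma adjusted p = 0.31), and it was -0.05 with MIR394A OE replicate 3 and Col-0 replicate 2 left out. It was -0.61 (adjusted p = 0.044) with the length trend removed, and -0.46 (adjusted p = 0.11) with these libraries also left out.

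The inhibitors IBH1 and PAR1 rose. IBH1 measured 11.73, 14.56 and 12.11 FPKM in Col-0 and 19.12, 20.33 and 20.60 in the Brz libraries. Every Brz library lay above every Col-0 library, and the Brz libraries lay close together. Its log2 fold change was 0.61 ± 0.15 (SE, limma adjusted p = 0.0068), or 0.50 (adjusted p = 0.012) with the length trend removed. PAR1, a light-induced HLH protein that binds PRE1 and PIF4, measured 11.70, 10.65 and 11.96 FPKM in Col-0 and 17.96, 23.31 and 20.86 in Brz. These groups were also fully apart, with Brz replicate 1 the lowest of its group. The log2 fold change of PAR1 was 0.80 ± 0.17 (SE, limma adjusted p = 0.0038), and 0.69 (adjusted p = 0.017) with the length trend removed. IBH1 and PAR1 were called higher in all 22 alternatives, at 0.49 to 0.88 and 0.58 to 1.06.

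HFR1, the third inhibitor, was not called. It measured 6.94, 6.74 and 6.92 FPKM in the Brz libraries and 5.73, 15.74 and 6.52 in Col-0. The Brz libraries were nearly equal and lay between Col-0 replicate 2 and the other Col-0 libraries. Its log2 fold change was -0.27 ± 0.30 (SE, limma adjusted p = 0.48), with a 95% interval of -0.92 to 0.38. With MIR394A OE replicate 3 and Col-0 replicate 2 left out it was 0.15 (adjusted p = 0.53).

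Of the bHLH factors, none was called in Brz against Col-0, and they differed in direction. BEE3 was higher in each Brz library (78.29, 85.72 and 80.03 FPKM) than in any Col-0 library (67.88, 75.84 and 47.98). Its log2 fold change was 0.37 ± 0.19 (SE, limma adjusted p = 0.13). It was called with median-ratio scaling (0.65, adjusted p = 0.018) and with MIR394A OE replicate 3 and Col-0 replicate 2 left out (0.50, adjusted p = 0.030), but not with the length trend removed (0.17, adjusted p = 0.42). BEE1 measured 31.61, 30.25 and 23.58 FPKM in Col-0 and 19.68, 18.48 and 26.22 in Brz. Brz replicate 3 lay above Col-0 replicate 3, and the log2 fold change of -0.40 ± 0.19 was not called (limma adjusted p = 0.11). For BEE2 and HBI1 the intervals were wide, at -1.22 to 0.43 and -1.45 to 0.26 on the log2 scale (95%), around log2 fold changes of -0.39 ± 0.38 and -0.59 ± 0.39 (SE). Without Col-0 replicate 2 these were -0.013 for BEE2 and -0.16 for HBI1, and without Brz replicate 1 -0.62 and -0.81, none of them called. With the length trend removed BEE1 stood at -0.295 (adjusted p = 0.25), BEE2 at -0.40 (0.41) and HBI1 at -0.365 (0.49).

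**Figure D2:**
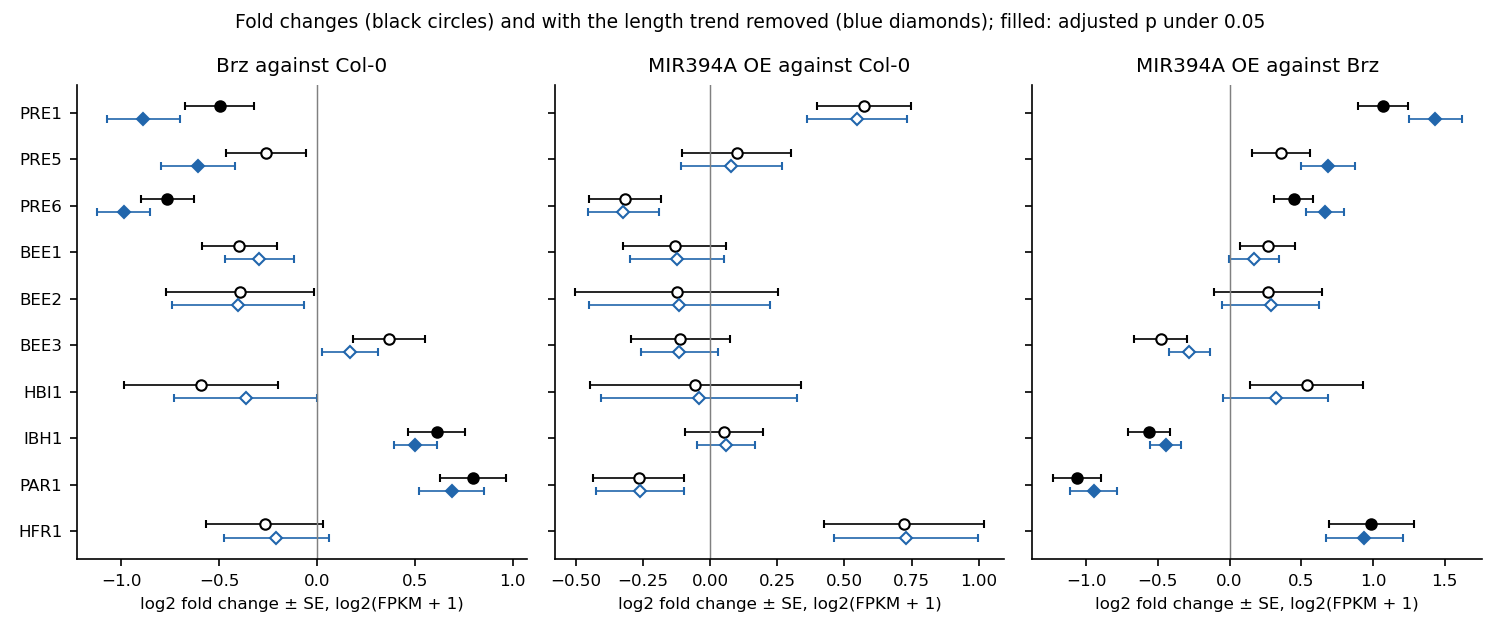
Log2 fold changes of the 10 genes on the log2(FPKM + 1) scale with their SE (x axis) in 3 comparisons, as fitted (black circles) and with the length trend removed (blue diamonds), where a filled symbol marks an adjusted p under 0.05. Against Col-0, PRE1 (-0.50), PRE6 (-0.76), IBH1 (0.61) and PAR1 (0.80) were called in the Brz libraries both ways, and no gene was called in MIR394A OE.

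As a ratio of FPKM values within a library, which no scaling between libraries changes, PRE6 to IBH1 was 3.81, 2.75 and 3.30 in Col-0 and 1.31, 1.09 and 1.21 in Brz. The Brz ratios all lay below the Col-0 ratios. PRE6 to PAR1 was 3.82, 3.76 and 3.34 in Col-0 and 1.39, 0.949 and 1.20 in Brz. PRE1 to IBH1 was 0.710, 0.391 and 0.484 in Col-0 and 0.252, 0.185 and 0.219 in Brz. In MIR394A OE the ratio of PRE6 to IBH1 was 2.46, 2.81 and 2.26 and that of PRE1 to IBH1 0.862, 0.835 and 0.636. Both overlapped with Col-0 and lay above Brz. BEE3 to IBH1 stayed at 3.88 to 5.79 over all 9 libraries, with overlap between all groups. HBI1 to IBH1, not drawn in the figure, was 1.25, 2.25 and 0.906 in Col-0 and 0.895, 1.11 and 2.03 in MIR394A OE. In Brz it was 0.809, 0.443 and 0.494, below all other libraries, with replicate 1 close to the lowest of them. These ratios are given as a description, without a test. PRE1 and PRE6 lay lower, and IBH1 and PAR1 higher, in each Brz library than in any other library. The Brz ratios of PRE6 to IBH1, PRE6 to PAR1 and PRE1 to IBH1 therefore had to lie below the others. No ratio was taken for PRE3, a sister gene that rose in Brz. PRE1 and PRE6 have shorter transcripts than IBH1 and PAR1, and HBI1 has a longer one than IBH1. In Brz longer transcripts tended to lower values, a trend that lowers HBI1 to IBH1 and raises the ratios with PRE1 or PRE6. Its part in these ratios was not tested. HBI1 itself was not called in Brz against Col-0.

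**Figure D3:**
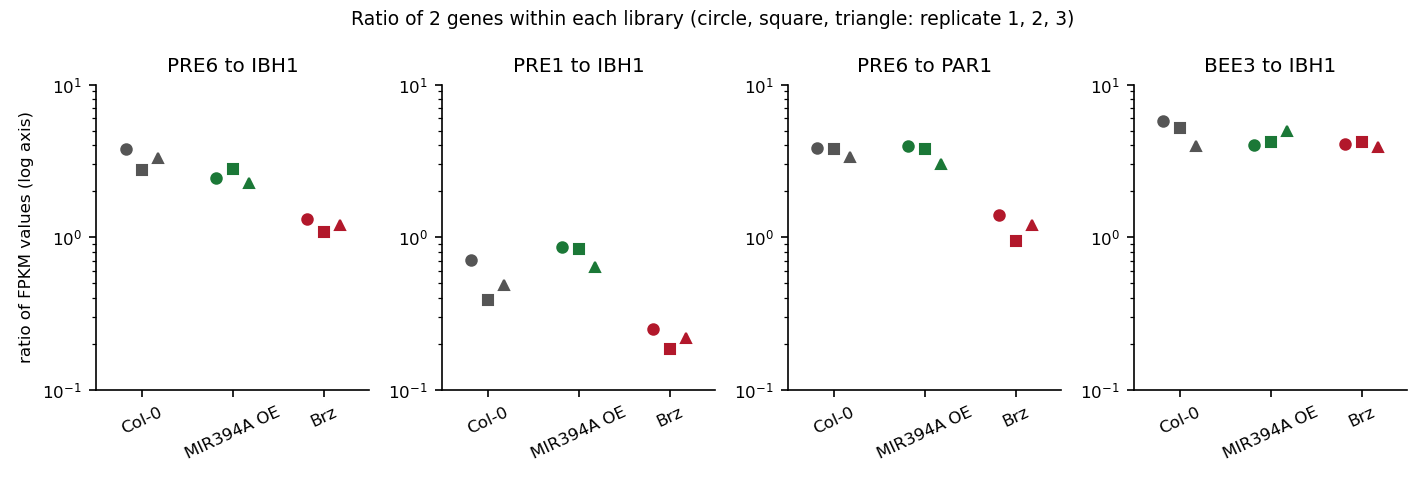
Ratio of the FPKM values of 2 genes within each library (y axis, logarithmic) for Col-0, MIR394A OE and Brz, with a point for each library. The Brz libraries lie below all others for PRE6 to IBH1 (1.09 to 1.31), PRE1 to IBH1 (0.185 to 0.252) and PRE6 to PAR1 (0.949 to 1.39), and overlap with the other groups for BEE3 to IBH1, where Brz replicate 3 is the lowest of the 9 libraries (3.88). The separation follows from PRE1, PRE6, IBH1 and PAR1, each of which was already apart in Brz.

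In MIR394A OE against Col-0, 0 of the 10 genes were called with limma, where 0.034% of tested genes were called, all lower. The count was also 0 of the 10 with the length trend removed (0.0283% of tested genes) and with median-ratio scaling (0.0284%). At an unadjusted p under 0.05 the count was 3 of the 10 (PRE1, PRE6 and HFR1), against 2.27% of tested genes, and groups did not overlap for PRE1 and PRE6, against 5.77% of tested genes. The median log2 fold change of the 10 was -0.08, against -0.01 over all tested genes. The 10 genes were chosen with results of these data known, so these shares are a description.

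PRE1 measured 10.45, 10.87 and 9.37 FPKM in MIR394A OE, each above the highest Col-0 library (8.33). Its log2 fold change was 0.57 ± 0.18 (SE, unadjusted p = 0.0068, limma adjusted p = 1.0), with a 95% interval of 0.19 to 0.96. Over the 22 alternatives it was 0.40 to 0.73. PRE6 measured 29.81, 36.61 and 33.22 FPKM, each below the lowest Col-0 library (39.97), with a log2 fold change of -0.32 ± 0.13 (SE, unadjusted p = 0.035, limma adjusted p = 1.0). In this comparison these sister genes thus had values of opposite sign, and in Brz against Col-0 both fell. PRE5 (1.26, 1.84 and 1.73 FPKM) overlapped with Col-0.

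HFR1 measured 12.68, 12.37 and 19.76 FPKM in MIR394A OE, against 5.73, 15.74 and 6.52 in Col-0. Col-0 replicate 2 lay within the MIR394A OE range, while the other Col-0 libraries lay well below it. This gave a log2 fold change of 0.72 ± 0.30 (SE, unadjusted p = 0.032, limma adjusted p = 1.0). With MIR394A OE replicate 3 and Col-0 replicate 2 left out it was 0.93, still not called (adjusted p = 0.43). PAR1, at 7.54, 9.72 and 11.03 FPKM, had a log2 fold change of -0.27 ± 0.17 and overlapped with Col-0. IBH1, at 12.12, 13.02 and 14.73 FPKM, stood at 0.05 ± 0.15, with a 95% interval of -0.27 to 0.37. The bHLH genes BEE1 (-0.13 ± 0.19), BEE2 (-0.13 ± 0.38), BEE3 (-0.11 ± 0.19) and HBI1 (-0.06 ± 0.39, log2 fold change ± SE) were not called and overlapped with Col-0.

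Set directly against Brz-treated Col-0, MIR394A OE had 3 of the 10 genes higher and 2 lower, against 37.8% of tested genes called (25.8% higher and 12% lower). This comparison shares its libraries with the other comparisons. Groups did not overlap for 6 of the 10 (46.5% of tested genes), and 6 had an unadjusted p under 0.05 (48.9%). With the length trend removed 4 were higher and 2 lower (9.3% and 11.1% of tested genes, 20.4% in all), and with median-ratio scaling 2 and 3 (19.5% and 22.9%, 42.5% in all). PRE1 was higher by 1.07 ± 0.18 on the log2 scale (SE, limma adjusted p = 0.0014) and HFR1 by 0.99 ± 0.30 (adjusted p = 0.022), while PAR1 was lower (-1.07 ± 0.17, adjusted p = 0.0012). IBH1 was lower as well (-0.56 ± 0.15, adjusted p = 0.011), and PRE6 was higher by 0.45 ± 0.13 (adjusted p = 0.022), a call lost with median-ratio scaling (0.20, adjusted p = 0.32). That call was also lost when Brz replicate 2 (0.39, adjusted p = 0.095), Brz replicate 3 (0.48, adjusted p = 0.055) or MIR394A OE replicate 2 (0.38, adjusted p = 0.088) was left out. PRE1 and PAR1 were called in all 22 alternatives, and IBH1 in 21, the exception being without MIR394A OE replicate 1 (-0.50, adjusted p = 0.059). HFR1 was not called without MIR394A OE replicate 3 (0.78, adjusted p = 0.072) or without Brz replicate 1, 2 or 3 (0.98 to 0.995, adjusted p = 0.050 to 0.070), nor with quantile normalization (0.77, adjusted p = 0.052). With quantile normalization 4 members were called, beside 6993 of 17662 tested genes. The number of called members was 3 without Brz replicate 2 and 3 without Brz replicate 3. All-gene calls fell there too, from 6674 of 17662 as fitted to 3553 of 17580 and 3783 of 17559. BEE3 was not called (-0.48 ± 0.19, adjusted p = 0.058), but was called lower in 7 of 22 alternatives, and PRE5 was called with the length trend removed (0.68, adjusted p = 0.031).

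BEE2 and HBI1 followed each other closely from library to library. BEE2 measured 16.97, 35.66 and 14.33 FPKM in Col-0, 12.72, 14.97 and 34.53 in MIR394A OE and 21.44, 11.96 and 14.29 in Brz. HBI1 measured 14.61, 32.81 and 10.97 FPKM in Col-0, 10.85, 14.43 and 29.83 in MIR394A OE and 15.46, 9.01 and 10.18 in Brz. The same library was highest in each group for both genes: Brz replicate 1, MIR394A OE replicate 3 and Col-0 replicate 2, the libraries that stood apart on the second principal component. Against the mean of the other libraries of its group, HBI1 was 2.57 times as high in Col-0 replicate 2, 2.36 times in MIR394A OE replicate 3 and 1.61 times in Brz replicate 1. For BEE2 the factors were 2.28, 2.49 and 1.63.

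On the log2(FPKM + 1) scale HBI1 stood 1.31 above the other Col-0 libraries in replicate 2 and 1.19 above the other MIR394A OE libraries in replicate 3. Of the 17662 tested genes, 19 (0.108%, HBI1 included) stood at least as high in both libraries, and 24 (0.136%) did so at the values of BEE2 (1.14 and 1.26). HFR1 stood 1.23 and 0.62 above, matched by 51 genes (0.289%), but only 0.02 in Brz replicate 1, where HBI1 stood at 0.64 and BEE2 at 0.67. With the length trend removed HBI1 still stood at 1.17 and 1.06, BEE2 at 0.98 and 1.06, and HFR1 at 1.08 and 0.44. The other members deviated less in these libraries, with at most 0.63 (PRE5) in Col-0 replicate 2 and at most 0.52 (BEE1) in MIR394A OE replicate 3. PRE1 stood below the other libraries in both, at -0.26 and -0.17. CIB1, a cryptochrome-binding bHLH, was also highest in these libraries of the untreated groups, at 37.43 FPKM in Col-0 replicate 2 and 28.37 in MIR394A OE replicate 3 against 14.40 to 22.06 in the others. Of the relatives and targets described below, XTH15, AIF2 and BZR1 were lowest of their group in both. PRE3, PIF1, PIF5, PIF7, CIL1, CIB4, CIL2 and HB-2 were each highest of their group in both, by less than BEE2 and HBI1. They and CIB1 were highest of their group in Brz replicate 1 too. Summed green-shoot markers were lowest of their group in these libraries, but single markers went both ways: 7 of the 8 were lowest in Col-0 replicate 2, 3 were lowest and 3 highest in MIR394A OE replicate 3, and 5 were lowest and 2 highest in Brz replicate 1. Of the 8 root markers, 5 were highest of their group in Col-0 replicate 2, 1 in MIR394A OE replicate 3 and 3 in Brz replicate 1, where 4 were lowest. The part of tissue makeup in the values of BEE2, HBI1 and HFR1 was not tested.

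**Figure D4:**
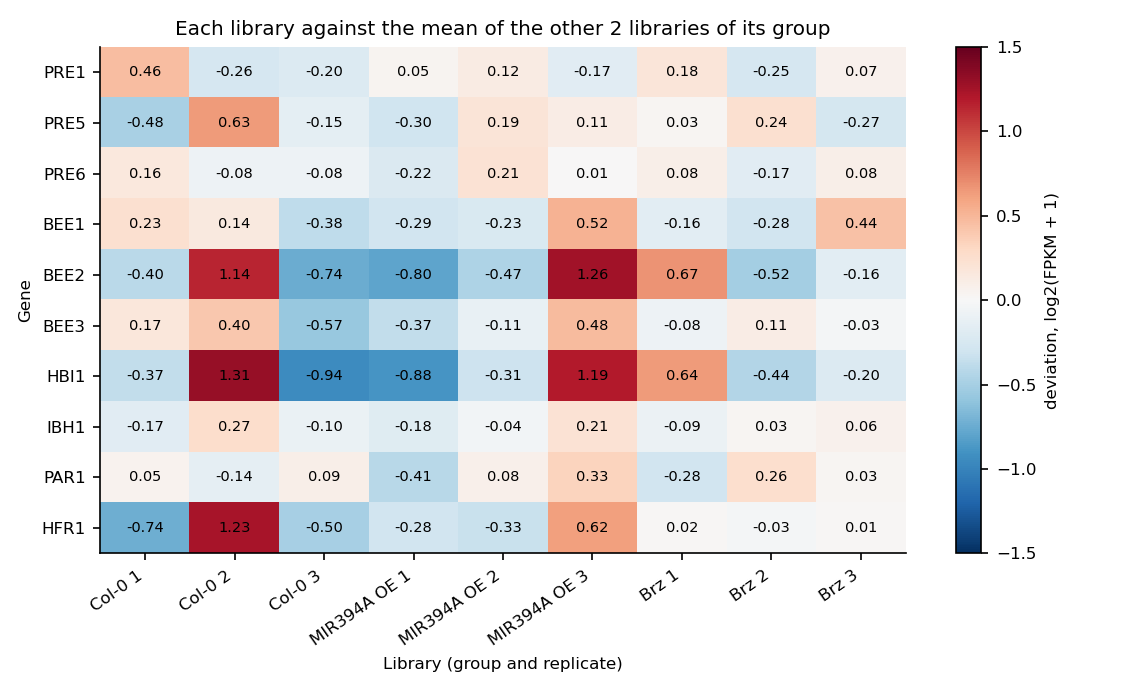
Deviation of each library (columns) from the mean of the other 2 libraries of its group, on the log2(FPKM + 1) scale, for the 10 genes (rows), with red for higher and blue for lower values. BEE2 and HBI1 stand above 1.1 in Col-0 replicate 2 and MIR394A OE replicate 3, HFR1 at 1.23 and 0.62, and PRE6 near 0.

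Likeness of pattern was measured over the 9 libraries as the root mean square distance of log2(FPKM + 1), each gene centred on its mean. Of 17661 other genes, BEE2 was the third nearest to HBI1 and HBI1 the third nearest to BEE2 (distance 0.136). The nearest to HBI1 were AT2G27285, annotated as a nuclear speckle splicing regulatory-like protein (0.106), and AT3G11450, a DnaJ and Myb-like domain protein (0.127). No other pair of members ranked as high. By distance the next pair was BEE3 and IBH1 (0.184), at ranks 780 from BEE3 and 1283 from IBH1. PRE6 and BEE1 (0.249) and PAR1 and IBH1 (0.253) came after it. PRE5 ranked 222 from HFR1 at a larger distance (0.385), while the member nearest to PRE5 was BEE1, at rank 7334 (0.325). Nearest to PRE6 were AT2G44870 (0.10, at 42.48 to 75.47 FPKM) and the low gene AT4G18596 (0.106, at 0.27 to 1.15 FPKM), nearest to PRE1 were AT1G49230, a RING/U-box protein (0.153), and the wall-associated kinase gene WAK2 (0.170), and nearest to HFR1 were AT5G22145 (0.200) and MLP165 (0.205).

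Among 31 relatives, partners and known targets of the 10 genes, 29 passed the filter, and in Brz against Col-0 3 were called higher and 11 lower, 14 of 29 in all, with a median log2 fold change of -0.30. Over all tested genes 13.2% were higher and 28.7% lower, 41.9% in all, with a median of -0.22. As fitted, the list was thus near the background. With the length trend removed 4 were higher and 8 lower, 12 of 29 in all. Of all tested genes 13.1% were then higher and 10.4% lower, 23.5% in all. The share of the list called lower was then above that of all tested genes. The list was chosen with earlier results of these data known, and this difference was not tested. In MIR394A OE against Col-0 0 of the 29 were called with limma, and 0 had an unadjusted p under 0.05.

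Of the sisters of the growth-promoting PRE genes, PRE3 rose. PRE3, known also as ATBS1 from a screen for suppressors of a brassinosteroid receptor mutant, measured 3.00, 5.48 and 5.24 FPKM in Col-0 and 16.39, 11.56 and 15.26 in Brz. Its lowest Brz library was above every Col-0 library, and the log2 fold change was 1.49 ± 0.25 (SE, limma adjusted p = 0.0012; 1.07 with the length trend removed). PRE1 and PRE6 thus fell while PRE3 rose in the same libraries. PRE2 measured 7.11 ± 1.07 against 6.50 ± 1.04 FPKM (SD, n = 3) and was called with the length trend removed (-0.55, adjusted p = 0.035) but not as fitted (-0.12, adjusted p = 0.70). PRE4 was below the filter, at 0.07 to 0.50 FPKM in all libraries.

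Of the sisters of the inhibitors, neither PAR2 nor IBL1 was called. PAR2 measured 24.5 ± 2.74 FPKM in Col-0 and 27.5 ± 5.79 in Brz (log2 fold change 0.15 ± 0.18, limma adjusted p = 0.52). With the length trend removed the sign of PAR2 turned (-0.09, adjusted p = 0.77). IBL1, a relative of IBH1, measured 7.47 ± 1.87 and 4.997 ± 0.66 FPKM, a log2 fold change of -0.48 ± 0.21 that was not called (adjusted p = 0.084) but was called with the length trend removed (-0.54, adjusted p = 0.038). Of AIF1 to AIF4, HLH relatives of IBH1, none was called as fitted, and AIF2 was called higher with the length trend removed (0.80, adjusted p = 0.016). AIF4 was called higher with median-ratio scaling (0.575, adjusted p = 0.023). A difference between each inhibitor and its sister was not tested.

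Of the DNA-binding partners and upstream factors, PIF1, PIF4, PIF5, PIF7, BZR1, BES1, BIM1 and CIL1 were called lower. PIF4 went from 41.6 ± 3.56 to 25.5 ± 6.28 FPKM (-0.71 ± 0.17, limma adjusted p = 0.0065) and PIF5 from 75.0 ± 5.28 to 45.0 ± 9.07 (-0.74 ± 0.16, adjusted p = 0.0043). PIF4 and PIF5 are long transcripts (2348 and 2282 bases), and with the length trend removed BZR1 (-0.61, adjusted p = 0.032) and BIM1 (-0.64, adjusted p = 0.0081), which works with BES1, were still called, though BZR1 was not with median-ratio scaling (-0.52, adjusted p = 0.054). The calls of PIF4 (-0.22, adjusted p = 0.15), PIF5 (-0.28, adjusted p = 0.11), PIF1, PIF7, BES1 (-0.40, adjusted p = 0.061) and CIL1 were lost.

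Targets of the network were split. EXPA8, an expansin gene and target of HBI1, fell from 167.7 ± 13.2 to 83.3 ± 6.56 FPKM (-1.002 ± 0.14, limma adjusted p = 6.6e-04), whereas EXPA1, another expansin target of HBI1, measured 437.7 ± 39.4 and 431.3 ± 24.0 FPKM (-0.02 ± 0.12, 95% interval -0.28 to 0.24). SAUR15, an auxin-response gene repressed by PAR1, fell from 5.74 ± 1.47 to 2.75 ± 0.73 FPKM (-0.84 ± 0.24, adjusted p = 0.014) and IAA19 by 0.98 on the log2 scale. EXPA8 (-1.03), SAUR15 (-1.29) and IAA19 (-1.24) were also called with the length trend removed. SAUR68, also repressed by PAR1, was called with the length trend removed (-0.63, adjusted p = 0.0097) but not as fitted (-0.21 ± 0.19). The shade-response genes XTH15 and PIL1, which HFR1 is known to restrain, rose by 1.78 ± 0.18 and 0.74 ± 0.22 on the log2 scale, XTH15 from 65.7 ± 8.45 to 227.4 ± 27.3 FPKM. Both rose also with the length trend removed (1.67 and 0.89), while HB-2 (ATHB2), of the same response, was not called (0.29 ± 0.22). HB-2 was called higher with median-ratio scaling (0.54, limma adjusted p = 0.023), but not with the length trend removed (0.26, adjusted p = 0.25).

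**Figure D5:**
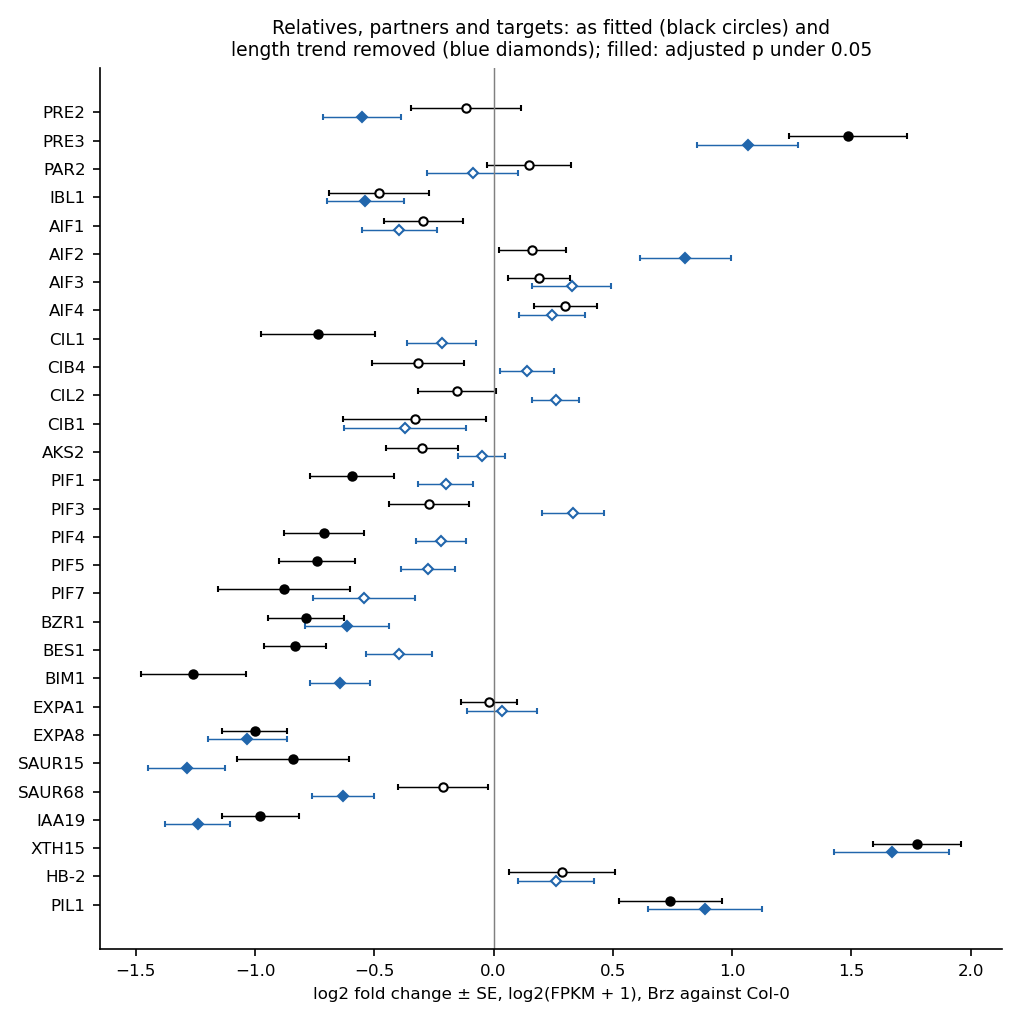
Log2 fold change ± SE of Brz against Col-0 on the log2(FPKM + 1) scale (x axis) for the 29 tested relatives, partners and targets, as fitted (black circles) and with the length trend removed (blue diamonds), where filled symbols mark an adjusted p under 0.05. PRE3 (1.49), PIL1 (0.74) and XTH15 (1.78) lie to the right of 0 in both fits, and PIF1, PIF4, PIF5 and PIF7 move towards 0 when the length trend is removed.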

How the data were processed

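The 9 mRNA libraries came from whole seedlings, grouped by their titles. The authors deposited 1 table of FPKM values, per the file headers, with 1 column per library, all of which were used. Per the submitters' processing notes, Bowtie2 and HISAT were used, without stated roles or versions. Neither the genome build and annotation nor the strand setting and FPKM program were given in the sources used here. Of 27647 loci, 3316 were blank.

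Genes with at least 1 FPKM in at least 3 libraries (17662) were tested on log2(FPKM + 1) in a single limma model (version 3.58.1, R 4.3.3; intensity trend, group means, 3 contrasts, both directions). Length trends were removed per library by loess (span 0.5) on log2 length of the longest TAIR10.1 transcript, and 132 tested genes without a length were shifted by the library median. Depth was fitted from genes with 1 transcript, where 84.4% to 86.3% of low values lay within 0.1 of a whole read. On simulated data for 17662 genes (Brz against Col-0), the model tested recovered 8.96% of changes of 0.5, 62.7% of 1 and 98.5% of 2 on the log2 scale, and 8.87% of calls were false.

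All 10 members were named, with the called genes of a list of 31 relatives and targets and its family sisters. AT1G68920, AT1G10120, AT3G23690 and AT1G05805 are called CIL1, CIB4, CIL2 and AKS2 after the reference table. The members, lists and alternatives were chosen with earlier results of these data known. Alternatives were other scalings, filters and pseudocounts, left-out libraries, a replicate block and fits of the compared groups alone.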

Additional observations from a re-analysis of the deposited data

How the results depend on the processing

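The number of called members was 0 in MIR394A OE against Col-0 under all 22 alternatives, 3 to 5 in Brz against Col-0 (4 as fitted) and 3 to 6 in MIR394A OE against Brz (5 as fitted). Calls over all tested genes moved widely as well. In Brz against Col-0 they ran from 4145 of 17662 to 10204 of 17106. In MIR394A OE against Brz they ran from 3553 of 17580 to 10127 of 17106, and in MIR394A OE against Col-0 from 2 of 17331 to 6 of 17662. Leaving out each library in turn gave 3 to 4 in Brz against Col-0 and 3 to 6 in MIR394A OE against Brz. For the list of relatives and targets in Brz against Col-0, with 14 called as fitted, it gave 10 to 17. Over all tested genes it gave 4146 of 17580 (without Brz replicate 2) to 9455 of 17545 (without Brz replicate 1) in Brz against Col-0. In MIR394A OE against Brz it gave 3553 of 17580 to 8972 of 17545, without the same libraries.

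Signs turned only for values that were not called. In MIR394A OE against Col-0, leaving out 1 library gave -0.061 to 0.31 for PRE5, -0.55 to 0.26 for BEE2, -0.302 to 0.023 for BEE3, -0.45 to 0.38 for HBI1 and -0.019 to 0.141 for IBH1. In Brz against Col-0 it gave -0.51 to 0.15 for HFR1, and in MIR394A OE against Brz -0.15 to 0.54 for BEE2. With MIR394A OE replicate 3 and Col-0 replicate 2 left out, HFR1 stood at 0.145 in Brz against Col-0 and BEE2 at -0.15 in MIR394A OE against Brz. With the length trend also removed, an alternative added after seeing the data, HFR1 stood at 0.15 and HBI1 at 0.027 in Brz against Col-0, and BEE2 at -0.065 and HBI1 at -0.033 in MIR394A OE against Brz. Without Brz replicate 1 as well, also added afterwards, HFR1 stood at 0.14. Quantile normalization put PRE5 at 0 in Brz against Col-0. The cause was not tested. PRE5 was not tested at a filter of 5 FPKM.

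Libraries with the same replicate number did not deviate together (correlations of -0.64 to 0.15 between groups), and Col-0 replicate 2 correlated best with MIR394A OE replicate 3 (0.55). With the replicate number as a block, 3 members were called in Brz against Col-0 and 4 in MIR394A OE against Brz, and PRE1 (adjusted p = 0.062) and PRE6 (adjusted p = 0.057) were the calls lost, in that order. Of all 17662 tested genes, 5996 and 5280 were called with the block, against 7398 and 6674 as fitted. At about 15 to 43 reads per library, the depth limits what can be said of PRE5.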
